A study of Mus musculus with 20 samples.

Results

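Described here are 39 mouse genes of Wnt signalling: ligands, receptors, secreted antagonists, transcription factors, feedback and target genes and a scaffold of the destruction complex. They were found by matching their mouse symbols to the NCBI Gene numbers in the files, which gave all 39 among the 24454 genes of 12 libraries reported as CPM (reads scaled to the same library total) and 38 among the 19311 genes of 8 libraries reported as RPKM (scaled likewise and divided by transcript length); Nkd1 was not analysed in the RPKM libraries. The 8 RPKM libraries were 3 clones called stable mesenchymal (M1, M2 and M3), set against Py2T LT, Py2T cells cultured for over 10 days with TGF-beta 1 at 2 ng/ml. Py2T is a tumour cell line from the MMTV-PyMT mouse, in which a mammary promoter drives polyoma middle T antigen; each clone is a single line, and whether the clones were kept in TGF-beta is not given in the sources used here. The 12 CPM libraries were all M3 cells carrying shTet2, shMbd3 or the control hairpin shControl, each with 2 µM CI994 for 72 hours and without it. CI994 inhibits class I histone deacetylases, Tet2 oxidises methylated cytosine, and Mbd3 belongs to the NuRD chromatin complex, which contains such deacetylases. Each of the 10 groups had 2 replicates from 2 independent experiments, so every test rests on the spread within such pairs, pooled over all groups of a set. The RPKM and CPM libraries were read separately and were not compared with each other.

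Secreted Wnt proteins bind Frizzled receptors (Fzd) and the co-receptors Lrp5 and Lrp6. Binding stops a destruction complex built on the scaffold Axin1 from degrading beta-catenin, which then joins Lef1 and the Tcf proteins on DNA and turns on target genes. Several targets feed back on the pathway: Axin2 rebuilds the destruction complex, Rnf43 and Znrf3 are ubiquitin ligases that remove Frizzled from the cell surface, Apcdd1 is a membrane inhibitor, and Lgr5, like Lgr4, is a receptor for R-spondins, which oppose Rnf43 and Znrf3. Secreted antagonists act outside the cell, Sfrp and Wif1 proteins by binding Wnts and Dkk1 and Dkk2 by binding Lrp5 and Lrp6. Some ligands, such as Wnt5a and Wnt11, mostly signal without beta-catenin, through Ror1, Ror2 and Frizzled. In the mammary gland the pathway is known for its part in branching and in basal stem cells.

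Promoter windows of 300 bases, 250 before to 50 after an annotated start, were found for 24 of the 39 members in a RefSeq table of the mouse build GRCm38.p6, 33 windows in all. The median member window was 64.3% G and C and held 21 CG pairs, against 52.7% and 7 over all 32851 windows of the table. The 5 below are shown because Tet2 acts on methylated cytosine, most of which lies in CG pairs. These genes also carry large contrasts described here. Lef1 and Wnt11 were not tested in the CPM libraries, however, and Dkk2 was not called in shTet2 against shControl cells. DNA methylation was not measured, and no link of these windows to Tet2 was tested. CG is in capitals. The 5 windows run 5' to 3' on the gene's strand and are chr3:131110047-131110346 (plus) for Lef1 with 18 CG, chr3:132085042-132085341 (plus) for Dkk2 with 11, chr7:98834862-98835161 (plus) for Wnt11 with 45, chr6:91411304-91411603 (minus) for Wnt7a with 42 and chr1:59481897-59482196 (plus) for Fzd7 with 24. The table gives 4 windows for Lef1, with 18, 21, 8 and 5 CG, and 2 for Wnt11, with 45 and 23, of which the first is shown.
Lef1: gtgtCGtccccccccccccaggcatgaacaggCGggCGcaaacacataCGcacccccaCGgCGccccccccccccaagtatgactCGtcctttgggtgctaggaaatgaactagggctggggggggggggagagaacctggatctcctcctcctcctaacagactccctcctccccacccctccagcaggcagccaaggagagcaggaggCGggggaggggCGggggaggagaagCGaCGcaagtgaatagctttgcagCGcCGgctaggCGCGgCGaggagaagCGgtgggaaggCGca
Dkk2: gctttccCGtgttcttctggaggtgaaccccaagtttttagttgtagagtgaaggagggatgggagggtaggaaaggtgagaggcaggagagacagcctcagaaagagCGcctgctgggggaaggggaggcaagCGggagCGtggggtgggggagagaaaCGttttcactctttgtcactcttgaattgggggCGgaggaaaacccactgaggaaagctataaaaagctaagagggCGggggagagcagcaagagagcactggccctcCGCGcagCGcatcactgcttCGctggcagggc
Wnt11: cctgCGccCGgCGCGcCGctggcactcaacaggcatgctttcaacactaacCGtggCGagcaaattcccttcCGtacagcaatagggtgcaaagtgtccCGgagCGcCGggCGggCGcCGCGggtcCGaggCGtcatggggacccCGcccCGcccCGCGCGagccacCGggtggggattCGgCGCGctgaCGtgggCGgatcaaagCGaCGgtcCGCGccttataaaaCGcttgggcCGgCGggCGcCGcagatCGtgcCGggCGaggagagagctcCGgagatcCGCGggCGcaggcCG
Wnt7a: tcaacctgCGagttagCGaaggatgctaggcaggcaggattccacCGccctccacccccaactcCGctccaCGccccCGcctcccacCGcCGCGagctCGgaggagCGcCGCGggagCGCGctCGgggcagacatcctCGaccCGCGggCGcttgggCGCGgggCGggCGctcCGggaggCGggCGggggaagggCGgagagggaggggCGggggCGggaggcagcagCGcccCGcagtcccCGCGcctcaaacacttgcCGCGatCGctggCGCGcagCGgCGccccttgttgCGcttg
Fzd7: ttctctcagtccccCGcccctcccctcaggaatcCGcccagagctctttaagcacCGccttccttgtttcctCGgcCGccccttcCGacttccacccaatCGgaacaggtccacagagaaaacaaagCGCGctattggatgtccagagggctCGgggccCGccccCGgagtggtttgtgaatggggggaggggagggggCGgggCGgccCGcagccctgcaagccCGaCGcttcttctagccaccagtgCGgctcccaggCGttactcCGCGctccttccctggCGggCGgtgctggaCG
The windows shown for Lef1, Wnt11, Wnt7a and Fzd7 are richer in CG than the median window of the table, and that of Dkk2 less so than the other 4. The letters CTTTGAA or CTTTGAT, the core bound by Tcf and Lef proteins, were searched on both strands and stood in 4 of the 33 member windows (12.1%; 1 each of Dkk1, Sp5, Wnt11 and Wnt5b) and in 2842 of all 32851 windows (8.65%). In the Wnt11 window above the match is on the opposite strand. Sfrp1, Wnt5a and Wnt10a are named without a window.

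A few facts of the libraries bear on what follows. Whole reads could be recovered from the CPM values, 16086082 to 24977595 per library, so that a gene with 0 reads could hold up to 0.120 to 0.186 CPM (3 reads), which covers counting error only; the depth of the RPKM libraries is unknown. Tet2 was at 8.41 and 7.97 CPM in shTet2 cells, against 15.1 and 13.8 CPM in shControl cells; with CI994 the gap was smaller, 6.30 and 7.42 CPM in shTet2 cells, against 8.13 and 11.4 CPM in shControl cells. Mbd3 was at 22.1 and 27.7 CPM in shMbd3 cells, against 5.40 and 66.5 CPM in shControl cells, so the library labelled shControl replicate 1 goes against its label. That library also stood apart in base composition: the median log2 change between its level and that of replicate 2 moved by -1.77 from the genes lowest to those highest in GC content, against -0.387 to 0.0140 for the other 5 replicate pairs. Many results that rest on it, though not all, are given with and without it. Cdh1, the epithelial cadherin, was at 202 and 207 CPM in shTet2 cells and 169.7 and 202 CPM in shMbd3 cells, against 16.3 and 25.7 CPM in shControl cells. The 7 epithelial markers checked summed to 3569 to 4033 CPM in shTet2 cells and 2575 to 2648 CPM in shMbd3 cells. In shControl cells they summed to 974 CPM in the library labelled replicate 1 and 2487 CPM in replicate 2. The shMbd3 sums thus lay just above that of replicate 2, and most of each sum was Krt8 and Krt18. The 7 mesenchymal markers did not move together between the clones and Py2T LT cells. Vim was at 358 to 589 RPKM in the clones, against 1397 and 1379 RPKM in Py2T LT cells, and Fn1, Zeb1 and Zeb2 were likewise lower in every clone library. Cdh2 was at 36.5 to 54.9 RPKM in the clones, against 1.74 and 1.94 RPKM in Py2T LT cells, and Twist1 and Prrx1 were likewise higher in every clone library. Their part in the results was not tested.

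**Figure D1:**
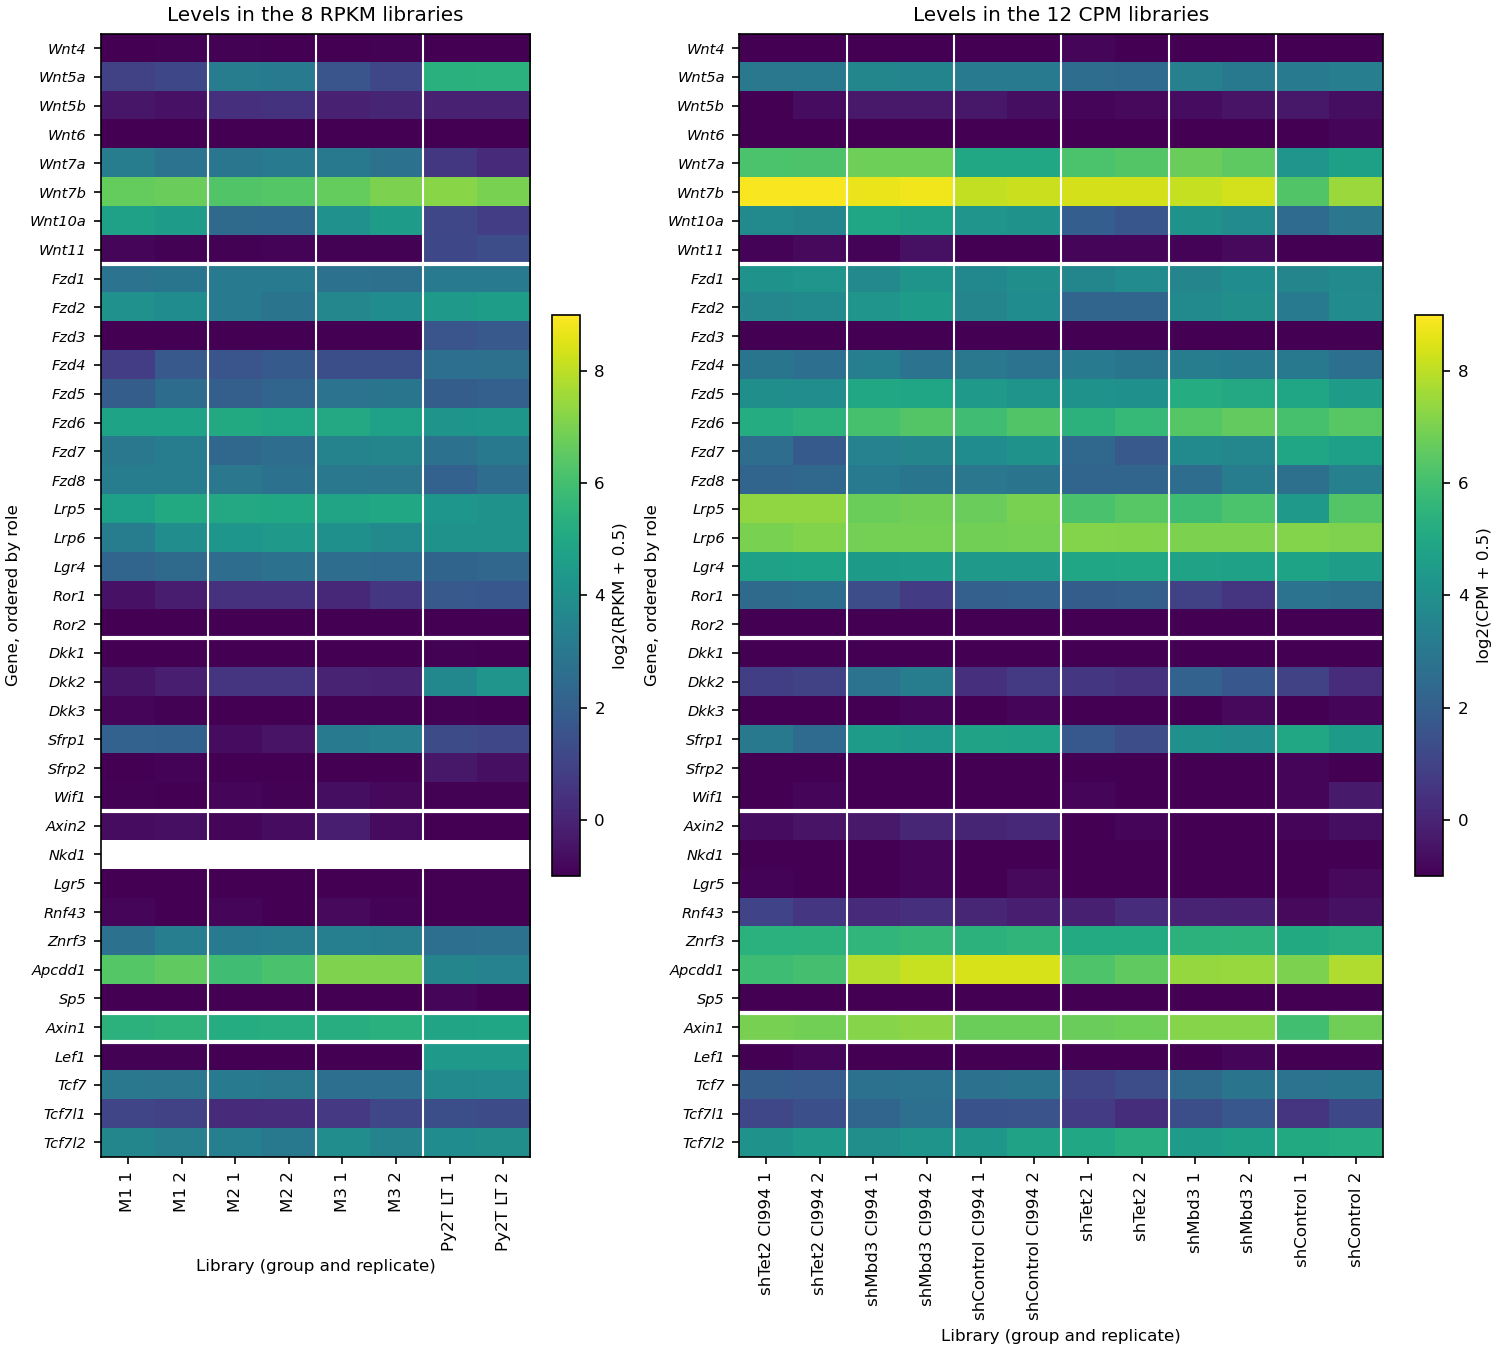
Level of each member in each library as log2(RPKM + 0.5) on the left and log2(CPM + 0.5) on the right, with members in rows by role and libraries in columns by group; blank cells have no value. Lef1, Dkk2 and Wnt5a are brightest in the Py2T LT columns of the left panel, Apcdd1 in the clones, and members such as Sp5 and Wnt6 are dark across both panels.

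The first comparison asks how the clones' Wnt genes differ from those of Py2T cells under long TGF-beta. Wnt7a, Wnt10a and Apcdd1 were higher in each clone, and Lef1, Tcf7, Wnt5a, Wnt11, Fzd2, Fzd3, Fzd4, Ror1 and Dkk2 were lower in each. Differences are of log2(RPKM + 0.5), clone minus Py2T LT, with standard errors (SE) from a limma fit over all 11717 genes tested, and a gene passed with a Benjamini-Hochberg adjusted p under 0.05. Of the 26 members tested, 21 passed in M1 (8 higher, 13 lower), against 60.8% of all genes tested (30.7% higher, 30.2% lower). In M2 22 passed (8 higher, 14 lower), against 57.4% of all genes (28.2% higher, 29.2% lower), and in M3 22 (11 higher, 11 lower), against 59.4% (29.9% higher, 29.5% lower). The median difference of the members was -0.35 in M1, -0.59 in M2 and -0.23 in M3, against -0.01, -0.00 and -0.00 over all genes. Lef1, Fzd3, Wnt11, Ror1 and Dkk2 entered the test through the Py2T LT libraries alone, so these counts and medians lean towards lower levels in the clones. Their p-values below carry the same limit, because genes under 1 RPKM in the clones were tested only if high in Py2T LT cells. Over the other 21 members the median was 0.19 in M1, 0.11 in M2 and 0.43 in M3, with 8 higher and 8 lower in M1, 8 and 9 in M2, and 11 and 6 in M3. Of the calls, 14 in M1, 17 in M2 and 18 in M3 were kept in every fit that left out 1 library and still tested the gene; without either Py2T LT library those 5 genes were not tested. The 3 comparisons share the Py2T LT libraries. In bulk RNA, fewer cells expressing a gene and less RNA per cell cannot be told apart.

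Among the ligands, Wnt5a and Wnt11 were lower and Wnt7a and Wnt10a higher in all 3 clones. Wnt5a, a ligand that mostly signals without beta-catenin, was at 1.44 and 1.74 RPKM in M1, 8.82 and 8.31 in M2 and 2.58 and 1.72 in M3, against 40.4 and 41.1 RPKM in Py2T LT cells. No clone library came near the Py2T LT level, and M2 kept the most. The log2 differences were -4.34 ± 0.17 in M1, -2.21 ± 0.17 in M2 and -3.99 ± 0.17 in M3 (adjusted p = 1.22e-07, 7.64e-06 and 1.75e-07). Wnt11 was between 0.0173 and 0.0583 RPKM in the 6 clone libraries, against 1.72 and 2.11 RPKM in Py2T LT cells, a difference of -2.17 to -2.23 (SE 0.14; adjusted p = 1.75e-06 to 2.22e-06). Its levels in the clones are close to 0, where the added 0.5 compresses the difference, and it was tested only through its Py2T LT level.

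Wnt10a, a ligand of the beta-catenin branch, was at 25.6 and 22.5 RPKM in M1, 4.95 and 4.88 in M2 and 16.2 and 22.7 in M3, against 1.69 and 1.25 RPKM in Py2T LT cells. All 6 clone libraries lay above both Py2T LT libraries, those of M2 least. The differences were 3.61 ± 0.17, 1.45 ± 0.17 and 3.32 ± 0.17 for M1, M2, M3 in turn (adjusted p = 4.46e-07, 0.000132 and 6.59e-07). Wnt7a was at 8.63 and 6.41 RPKM in M1, 7.15 and 8.05 in M2 and 7.75 and 6.16 in M3, against 1.03 and 0.651 RPKM in Py2T LT cells. Here the 3 clones overlapped in level, and the differences were 2.56, 2.59 and 2.48 (SE 0.19 each; adjusted p = 6.92e-06 to 8.83e-06). Wnt7b, a close relative of Wnt7a, was at 99.7 and 105 RPKM in M1, 77.7 and 82.1 in M2 and 97.9 and 129 in M3, against 148 and 126 RPKM in Py2T LT cells. Wnt7b was lower in M2 (-0.80 ± 0.14, adjusted p = 0.00126); it also passed in M1 (-0.45 ± 0.14, adjusted p = 0.0206) but not without Py2T LT replicate 1 (-0.37) or M1 replicate 1 (-0.39), and M3 overlapped Py2T LT.

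Because RPKM is per length, the ligands can be ordered within a library. Wnt7b had the highest RPKM of the ligands in all 8 libraries. After it came Wnt5a in Py2T LT cells, Wnt10a and then Wnt7a in M1, and Wnt10a and then Wnt7a in M3. In M2, Wnt5a (8.82 and 8.31 RPKM) and Wnt7a (7.15 and 8.05 RPKM) stood close together after Wnt7b, with Wnt10a below them. Wnt4 and Wnt6, by contrast, were at or near 0 RPKM in all 8 libraries.

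Receptor levels moved in both directions. Of the 12 receptors tested, 3 were higher and 6 lower in M1, 4 and 5 in M2, and 5 and 5 in M3. Over all genes tested, 30.7% were higher and 30.2% lower in M1, 28.2% and 29.2% in M2, and 29.9% and 29.5% in M3. Fzd3 and Ror1 were tested only through their Py2T LT levels, so the lower counts and the p-values of both carry that limit. Fzd3 was listed at 0 in all 6 clone libraries, against 2.58 and 2.93 RPKM in Py2T LT cells, and was called lower in each clone (adjusted p = 3.22e-07 to 3.57e-07). Ror1, a receptor tyrosine kinase for Wnt5a, was at 0.210 and 0.380 RPKM in M1, 0.848 and 0.855 in M2 and 0.605 and 0.989 in M3, against 2.94 and 2.76 RPKM in Py2T LT cells. The order of Ror1 across the clones put M1 lowest, with differences of -2.10 ± 0.18, -1.33 ± 0.18 and -1.39 ± 0.18 for M1, M2, M3 in turn (adjusted p = 1.56e-05, 0.000258 and 0.000183).

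Fzd4 and Fzd2 were the other receptors lower in all 3 clones. Fzd4 was at 1.28 and 2.94 RPKM in M1, 2.58 and 3.04 in M2 and 2.13 and 2.11 in M3, against 5.86 and 5.96 RPKM in Py2T LT cells, differences of -1.40 ± 0.27, -0.98 ± 0.27 and -1.30 ± 0.27 (adjusted p = 0.00200, 0.0134 and 0.00315). The M2 call was lost without Py2T LT replicate 1 (-1.0) or 2 (-0.97) or M2 replicate 1 (-0.87). Fzd2, a Frizzled that can respond to Wnt5a, was at 16 and 14 RPKM in M1, 8.26 and 6.73 in M2 and 12 and 13.9 in M3, against 20.2 and 23.2 RPKM in Py2T LT cells. Both M2 libraries were below every other library for Fzd2, with a difference of -1.5 ± 0.14 (adjusted p = 2.93e-05) in M2 and -0.72 ± 0.14 (adjusted p = 0.00204) in M3; that in M1 (-0.55 ± 0.14, adjusted p = 0.00856) was lost without Py2T LT replicate 2 (-0.48). Fzd1 was slightly lower in M3, at 6.05 and 5.93 RPKM against 8.52 and 8.01 RPKM in Py2T LT cells (-0.44 ± 0.11, adjusted p = 0.00723); in M1 it was at -0.32 ± 0.11 and lost its call without Py2T LT replicate 1 (-0.31) or 2 (-0.39), M1 replicate 1 (-0.27) or M2 replicate 1 or 2 (both -0.32).

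Lrp5, Fzd6 and Fzd8 were the receptors higher in all 3 clones. Fzd6 was at 27.4 and 27.7 RPKM in M1, 33.3 and 29.9 in M2 and 32.7 and 25.9 in M3, against 17.5 and 19.1 RPKM in Py2T LT cells. All clone libraries lay above both Py2T LT libraries, and the differences were 0.55 ± 0.13, 0.75 ± 0.13 and 0.65 ± 0.13 (adjusted p = 0.00590, 0.00113 and 0.00239); the M1 call was lost without Py2T LT replicate 1 (0.45). Lrp5, a Wnt co-receptor, was at 24.5 to 32.7 RPKM in the clones, against 18.6 and 16.7 RPKM in Py2T LT cells (0.63 ± 0.14 in M1, 0.81 ± 0.14 in M2 and 0.73 ± 0.14 in M3; adjusted p = 0.00504, 0.00138 and 0.00240), with the M1 call lost without Py2T LT replicate 2 (0.53). Its partner Lrp6 was at 8.76 and 14.5 RPKM in M1, against 16.9 and 17.0 RPKM in Py2T LT cells, and its M1 call (-0.60 ± 0.21) was lost without Py2T LT replicate 1 (-0.64) or 2 (-0.62), M1 replicate 1 (-0.23) or M3 replicate 2 (-0.60), and also with no filter on low levels (-0.61). Fzd8 was at 6.15 to 8.70 RPKM in the clones, against 3.89 and 5.43 RPKM in Py2T LT cells, differences of 0.81 ± 0.16 in M1, 0.48 ± 0.16 in M2 and 0.61 ± 0.16 in M3. Without Py2T LT replicate 1 the Fzd8 calls in M2 (0.25) and M3 (0.37) were lost, as they were without M2 replicate 1 (0.37) or M3 replicate 1 (0.48) for M2 and without M3 replicate 1 (0.59) for M3.

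The remaining receptors differed in 1 or 2 of the clones. Fzd5 was at 6.57 and 6.84 RPKM in M3, against 3.40 and 3.68 RPKM in Py2T LT cells (0.83 ± 0.19, adjusted p = 0.00575). Fzd7, a Frizzled often studied in stem and mesenchymal cells, was at 4.76 and 5.38 RPKM in M2 and 10.7 and 11.2 in M3, against 6.39 and 7.66 RPKM in Py2T LT cells. The libraries of M2 lay below and those of M3 above both Py2T LT libraries. The M3 difference for Fzd7 was 0.61 ± 0.14 (adjusted p = 0.00562; lost without Py2T LT replicate 1, 0.46), and the M2 difference was -0.45 ± 0.14 (adjusted p = 0.0231; lost without Py2T LT replicate 2, -0.34, or M2 replicate 1, -0.37, or 2, -0.53). Lgr4, a receptor for R-spondins, passed in M2 alone (0.39 ± 0.13), and that call was lost without either Py2T LT library (0.34 and 0.42) or either M2 library (0.48 and 0.31).

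The 2 secreted antagonists tested behaved differently from each other. Dkk2, which binds Lrp5 and Lrp6, was at 0.234 and 0.399 RPKM in M1, 0.963 and 0.948 in M2 and 0.460 and 0.450 in M3, against 12.1 and 18.2 RPKM in Py2T LT cells. It was lower in each clone, by -4.26 ± 0.20, -3.42 ± 0.20 and -4.02 ± 0.20 on the log2 scale (adjusted p = 4.25e-07, 1.63e-06 and 5.37e-07). Dkk2 was tested only through its Py2T LT level, which limits these p-values. Sfrp1, which binds Wnt proteins, was at 3.95 and 3.78 RPKM in M1, 0.129 and 0.222 in M2 and 8.52 and 9.09 in M3, against 1.96 and 1.66 RPKM in Py2T LT cells. The 4 groups did not overlap and ran from M2 through Py2T LT and M1 to M3. Sfrp1 was thus higher in M1 (0.89 ± 0.14, adjusted p = 0.000593) and M3 (2.01 ± 0.14, adjusted p = 4.04e-06) and lower in M2 (-1.79 ± 0.14, adjusted p = 8.91e-06).

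None of the 4 transcription factors was higher in a clone. Lef1, one of the proteins that carries beta-catenin on DNA, was at 0.0168 and 0.0182 RPKM in M1 and listed at 0 in all libraries of M2 and M3, against 20.2 and 20.5 RPKM in Py2T LT cells (adjusted p = 6.95e-09, 7.33e-09 and 6.82e-09 for M1, M2 and M3). Lef1 was tested only through its Py2T LT level, so these p-values are no separate support for the gap. Of the transcription factors it had the highest RPKM in Py2T LT cells and was at or near 0 in every clone library. Tcf7 was at 7.58 and 7.36 RPKM in M1, 8.25 and 7.42 in M2 and 5.75 and 5.86 in M3, against 13.4 and 13.5 RPKM in Py2T LT cells, differences of -0.84, -0.77 and -1.15 (SE 0.11 each; adjusted p = 0.000179, 0.000332 and 2.63e-05). The clone libraries all lay below both Py2T LT libraries, those of M3 lowest. Tcf7l1, mostly a repressor of targets, was at 0.673 and 0.715 RPKM in M2, against 2.14 and 2.04 RPKM in Py2T LT cells (-1.13 ± 0.17, adjusted p = 0.000496). In M3 it was at 1.07 and 1.68 RPKM (-0.49 ± 0.17), which no longer passed when either Py2T LT library was left out (-0.48 and -0.54), either M2 library (both -0.49) or M3 replicate 1 (-0.26). Tcf7l2 was at 9.55 and 7.81 RPKM in M2, against 13.9 and 15 RPKM in Py2T LT cells (-0.73 ± 0.17, adjusted p = 0.00514); in M1 (-0.48 ± 0.17) its call was lost without Py2T LT replicate 1 (-0.56) or 2 (-0.45) or M1 replicate 2 (-0.37), and with no filter on low levels (-0.49).

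Of the feedback genes, Apcdd1 carried the large change. Apcdd1 was at 82.1 and 94.7 RPKM in M1, 60.9 and 69.6 in M2 and 135 and 133 in M3, against 11.3 and 10.4 RPKM in Py2T LT cells. The clone libraries all lay far above Py2T LT, M3 highest and M2 lowest, with differences of 2.93, 2.51 and 3.56 (SE 0.11 each; adjusted p = 1.21e-07, 2.88e-07 and 3.66e-08). Znrf3 passed in M3 alone, at 9.47 and 8.78 RPKM against 5.77 and 6.24 RPKM in Py2T LT cells (0.56 ± 0.17), and lost that call without either Py2T LT library (0.48 and 0.59) or either M3 library (0.50 and 0.62). Axin1, the scaffold, was modestly higher: it was at 42.4 and 44.7 RPKM in M1, 36.2 and 36.7 in M2 and 36.8 and 40.7 in M3, against 28.3 and 28.8 RPKM in Py2T LT cells. Its differences were 0.57 ± 0.09 in M1 (adjusted p = 0.000826), 0.33 ± 0.09 in M2 and 0.43 ± 0.09 in M3 (adjusted p = 0.00400), and the M2 call was lost without either Py2T LT library (0.30 and 0.33) or either M2 library (0.34 and 0.32). Axin2, Lgr5, Rnf43 and Sp5, the classic readouts of beta-catenin activity, were under the level tested: none was above 0.387 RPKM in any library.

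**Figure D2:**
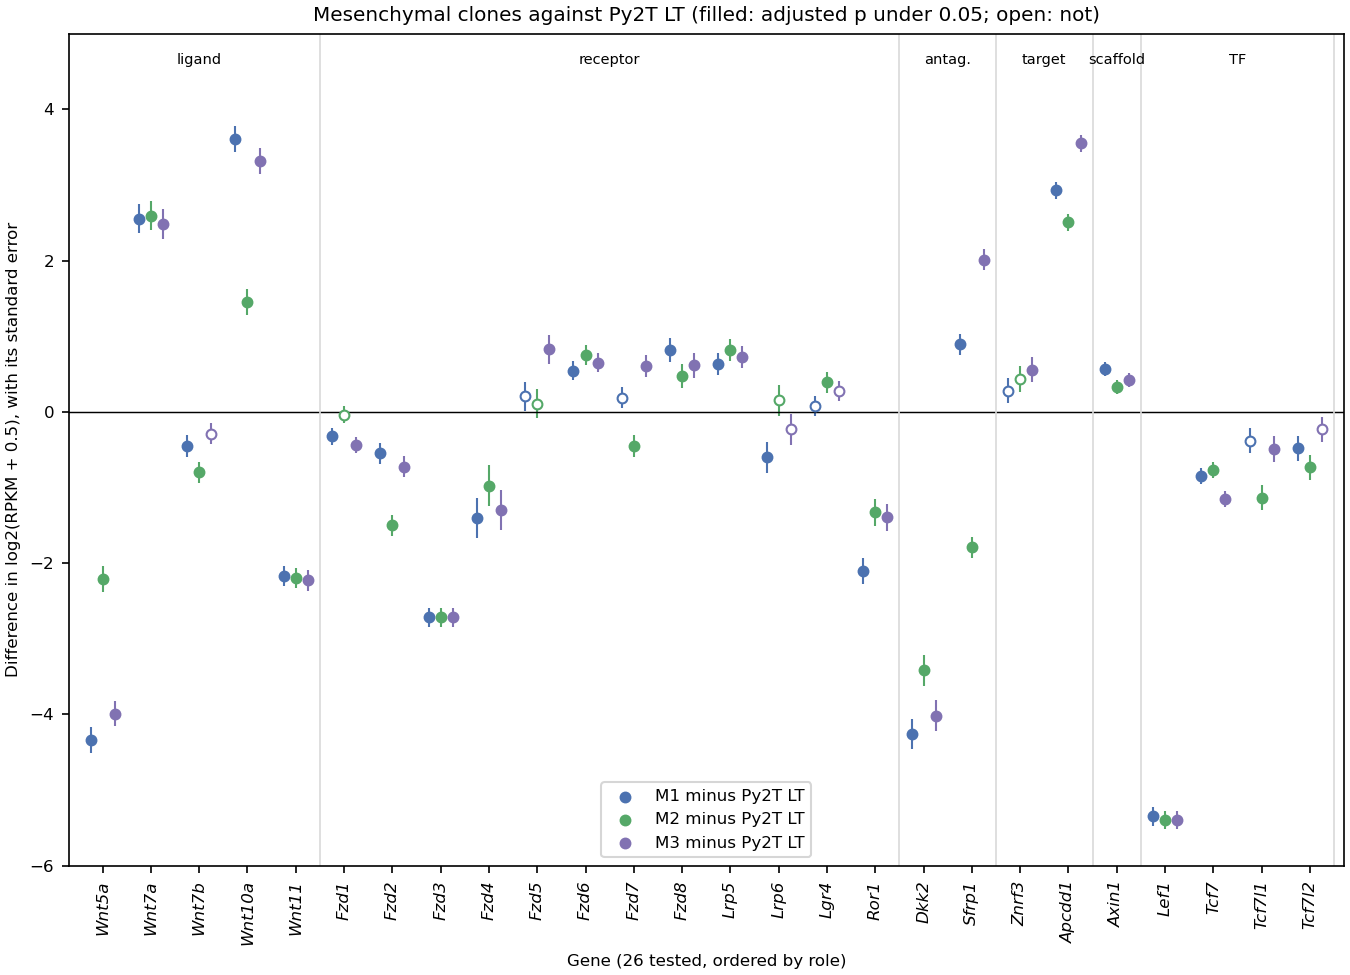
Difference of log2(RPKM + 0.5) between each clone and Py2T LT for the 26 members tested, ordered by role, with bars of 1 standard error; filled points passed at adjusted p under 0.05 and open ones did not. Lef1 and Fzd3, at or near 0 in the clones, sit where the added 0.5 limits them, and Sfrp1 is the member whose clones fall on both sides of 0 by the most.

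A fixed list of 81 other pathway genes gave 49 tested, and they moved in both directions: 14 were higher (28.6%) and 14 lower (28.6%) in M1, 15 (30.6%) and 15 (30.6%) in M2, and 14 (28.6%) and 17 (34.7%) in M3. These shares are close to those of all genes, 30.7% and 30.2% in M1, 28.2% and 29.2% in M2 and 29.9% and 29.5% in M3. Notum, a secreted enzyme that inactivates Wnts, was at 11.1 and 9.92 RPKM in M1, against 0.202 and 0.360 RPKM in Py2T LT cells (3.80 ± 0.19), and it was also higher in M2 (3.78 ± 0.19) and M3 (3.02 ± 0.19). Celsr1, a planar cell polarity cadherin, was higher by 2.44, 2.25 and 2.6 in M1, M2 and M3 (SE 0.19 each), Id2, an inhibitor of basic helix-loop-helix factors, by 2.40 in M1 and 2.04 in M2, and Prickle2, another planar cell polarity protein, by 2.35 in M3. Jag1, a Notch ligand and Wnt target, was at 3.29 and 2.80 RPKM in M1, against 82.7 and 74.5 RPKM in Py2T LT cells (-4.51 ± 0.16), with -3.81 in M2 and -5.37 in M3. Lgr6, another R-spondin receptor, was lower by -3.68, -3.41 and -2.39 and Ccn4, a Wnt-induced secreted protein, by -2.54, -4.13 and -2.74 in M1, M2 and M3. Ctnnb1, which encodes beta-catenin, was also lower (-0.68, -0.74 and -0.52), as were its target Ccnd1 (-0.82, -0.99 and -0.80) and Myc (-0.83, -0.97 and -1.08). Wls, the carrier that takes Wnts to the cell surface, was lower as well (-0.94, -0.88 and -0.90). Each of these values passed at adjusted p under 0.05. Porcn, which acylates Wnts before secretion, was at 11.4 and 10.1 RPKM in M1, against 4.85 and 4.42 RPKM in Py2T LT cells (1.1 ± 0.13, adjusted p = 0.000146), and was not called in M2 (-0.14) or M3 (-0.34). Apc was not called in M1 (-0.53), M2 (0.10) or M3 (-0.02).

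The clones also differed among themselves. M2 stood apart from the others: 10 of the 26 members differed in M2 against M1 (4 higher, 6 lower; background 23.1% of all genes, 10.6% higher and 12.5% lower) and 11 in M3 against M2 (8 higher, 3 lower; 20.1%, 10.6% higher and 9.55% lower). In M3 against M1 2 differed, both higher (5.03%, 3.07% higher and 1.95% lower). Ror1 and Dkk2, among the calls in M2 against M1, were under 1 RPKM in both clones and tested only through Py2T LT. Sfrp1 was lower in M2 than in M1 (-2.68 ± 0.14, adjusted p = 1.35e-05) and higher in M3 than in M1 (1.12 ± 0.14, adjusted p = 0.00317) and in M2 (3.80 ± 0.14, adjusted p = 1.71e-06). Wnt10a was lower in M2 than in M1 (-2.16 ± 0.17) and higher in M3 than in M2 (1.87 ± 0.17). Wnt5a ran the other way, higher in M2 than in M1 (2.13 ± 0.17) and lower in M3 than in M2 (-1.78 ± 0.17). Apcdd1 was higher in M3 than in M2 (1.05 ± 0.11), Fzd7 likewise (1.06 ± 0.14), and Fzd2 lower in M2 than in M1 (-0.95 ± 0.14). These calls were kept in every fit that left out 1 library. The second call for M3 against M1, Apcdd1 (0.63 ± 0.11), was lost without M3 replicate 1 (0.61) or 2 (0.65).

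**Figure D3:**
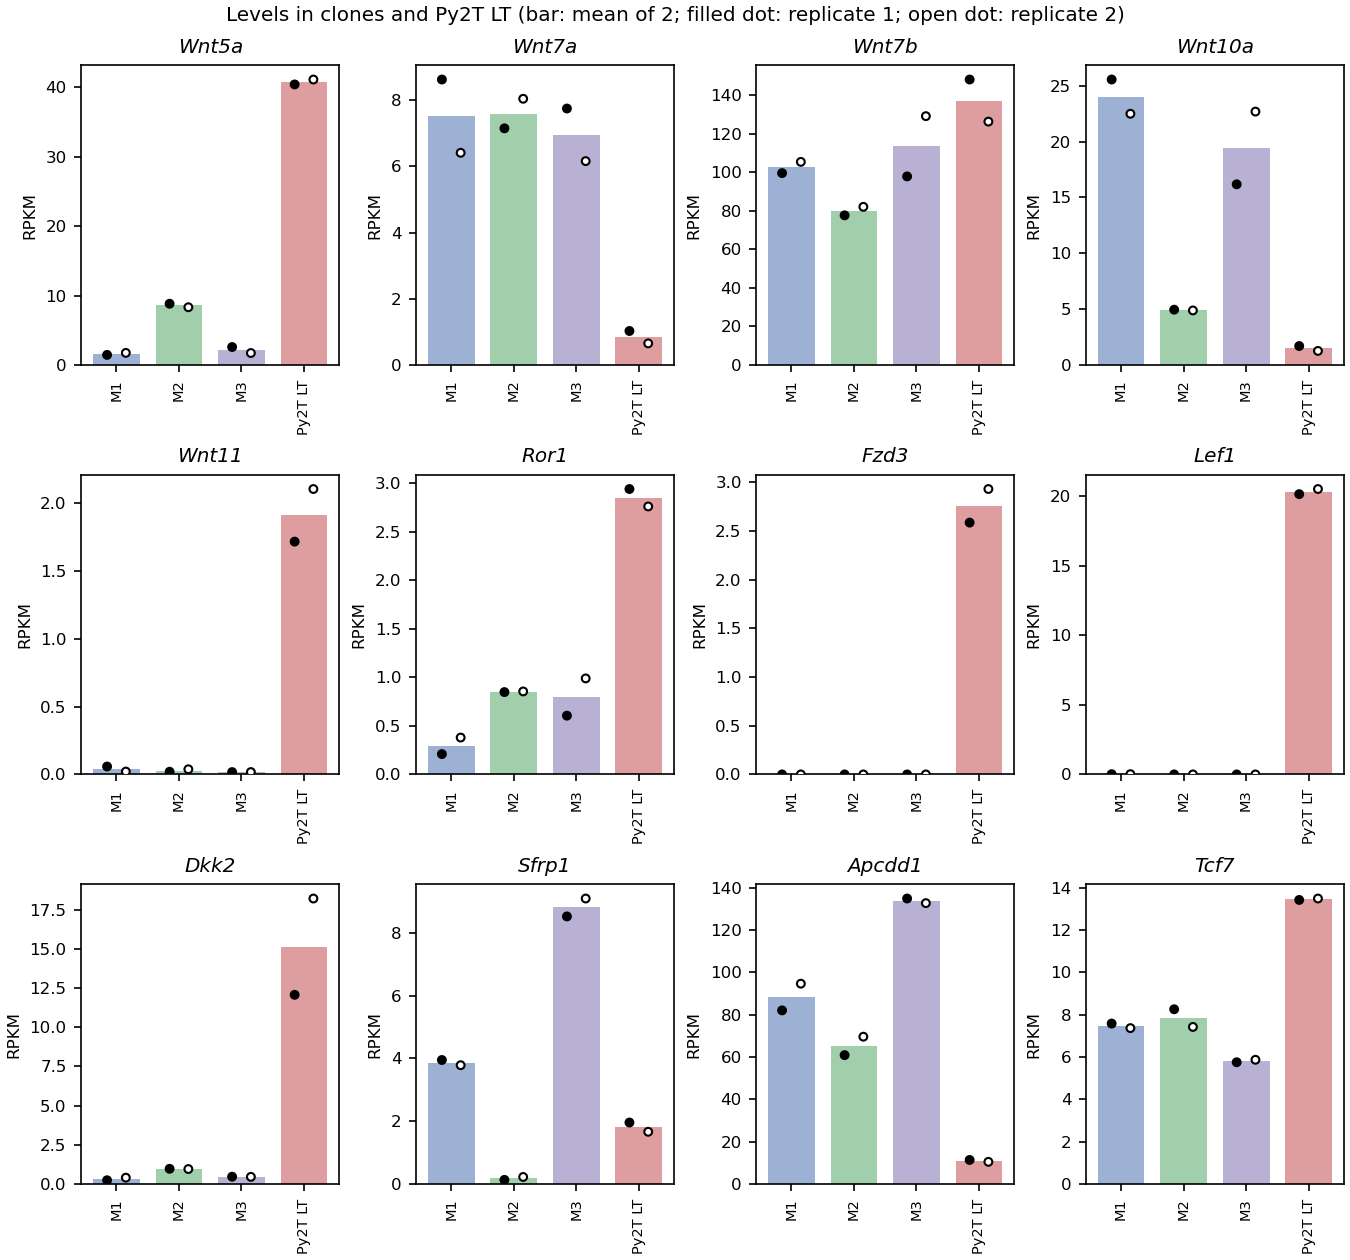
RPKM on linear axes from 0 in both libraries of M1, M2, M3 and Py2T LT for 12 members, with a dot for each library and a bar for the mean of 2. Lef1 and Dkk2 are high only in Py2T LT, Wnt5a is intermediate in M2, and Sfrp1 separates all 4 groups.

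The knockdown libraries ask what loss of Tet2 or Mbd3 does in M3 cells, with and without CI994. CPM is not per length, so levels were compared between groups and not between genes, and differences are of log2(CPM + 0.5) in a limma fit over 12808 genes. Of the 39 members, 25 were tested. In shTet2 against shControl cells 13 of them passed, 3 higher and 10 lower, against 23.4% of all genes (10.5% higher, 12.9% lower), and the median difference was -0.17 for the members and 0.02 for all genes. Without the library labelled shControl replicate 1, 12 passed, against 32.9% of all genes tested in that fit. Sfrp1, Fzd7, Fzd2 and Tcf7 were lower and Wnt7a and Wnt7b higher in every fit that left out 1 library.

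Sfrp1 was at 2.83 and 2.09 CPM in shTet2 cells, against 30.5 and 21.5 CPM in shControl cells (-3.13 ± 0.25, adjusted p = 5.21e-05; -2.83 without the library labelled shControl replicate 1). Fzd7 was at 4.63 and 2.94 CPM in shTet2 cells, against 30.1 and 24.2 CPM in shControl cells (-2.69 ± 0.28, adjusted p = 0.000229; -2.48 without that library). Neither gene's groups came close to overlapping. Fzd2 was at 4.30 and 4.28 CPM in shTet2 cells, against 8.19 and 13.6 CPM in shControl cells (-1.18 ± 0.21, adjusted p = 0.00381; -1.48 without that library). Tcf7 was at 1.65 and 2.09 CPM in shTet2 cells, against 6.54 and 6.80 CPM in shControl cells (-1.58 ± 0.17, adjusted p = 0.000257; -1.56 without that library). For these genes both shControl libraries were above both shTet2 libraries.

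In the other direction, Wnt7a was at 72.0 and 79.5 CPM in shTet2 cells, against 18.2 and 24.9 CPM in shControl cells (1.84 ± 0.13, adjusted p = 2.75e-05; 1.67 without the library labelled shControl replicate 1). Wnt7b was at 331 and 325 CPM in shTet2 cells, against 78.4 and 178 CPM in shControl cells (1.5 ± 0.27, adjusted p = 0.00396), and its difference was 0.96 without that library. Both ligands were above shControl in both shTet2 libraries, but the shControl libraries of Wnt7b were far apart. Wnt10a, by contrast, was lower, at 3.45 and 2.69 CPM in shTet2 cells against 5.17 and 7.38 CPM in shControl cells (-0.89 ± 0.19, adjusted p = 0.00981; lost without shTet2 replicate 2, -0.73; -1.07 without the library labelled shControl replicate 1).

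The other calls in shTet2 cells did not hold in every fit that left out 1 library. Apcdd1 was at 75.5 and 94.5 CPM in shTet2 cells, against 130.0 and 223 CPM in shControl cells (-0.98 ± 0.20, adjusted p = 0.00801), and its call was lost without shTet2 replicate 1 (-0.82). Fzd6 (-0.67 ± 0.17) lost its call without shTet2 replicate 1 (-0.53), and Wnt5a (-0.65 ± 0.15) without shTet2 replicate 1 (-0.70) or 2 (-0.60). Ror1 was at 3.35 and 3.59 CPM in shTet2 cells, against 6.54 and 5.99 CPM in shControl cells, and its difference (-0.75 ± 0.23) was called in 5 of 12 such fits, ranging from -0.86 to -0.63; the call was lost without the library labelled shControl replicate 1, either shTet2 library, or any CI994-treated shControl or shTet2 library. Fzd5 (-0.57 ± 0.17) was called in 1 of 12, the fit without shControl replicate 2 (-0.81), and was at -0.34 without the library labelled shControl replicate 1. Rnf43, at 9 and 14 reads in shTet2 cells against 2 and 4 reads in shControl cells, was called higher (0.75 ± 0.21) but not without the library labelled shControl replicate 1 (0.65) or shTet2 replicate 2 (0.56), nor with each library's trend along GC content removed (0.41).

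With CI994 in both arms, 8 of 25 members passed in shTet2 against shControl cells (2 higher, 6 lower), against 16.0% of all genes (6.69% higher, 9.28% lower). With the GC trend removed 11 passed (4 higher, 7 lower), against 30.1% of all genes tested in that fit (14.3% higher, 15.9% lower). Without that removal, Apcdd1 had the largest difference of the 8. It was at 59.4 and 65.3 CPM in shTet2 cells with CI994, against 339.7 and 335 CPM in shControl cells with CI994 (-2.44 ± 0.20, adjusted p = 6.67e-05). Sfrp1 was at 7.69 and 5.10 CPM in shTet2 cells with CI994, against 26.7 and 26.2 CPM in shControl cells with CI994 (-2.0 ± 0.25, adjusted p = 0.000669). Fzd7 was at 5.49 and 3.04 CPM in shTet2 cells with CI994, against 14.2 and 17.3 CPM in shControl cells with CI994 (-1.82 ± 0.28, adjusted p = 0.00241). In all of these the groups were well apart. Wnt7a was at 70.4 and 72.9 CPM in shTet2 cells with CI994, against 30.2 and 31.8 CPM in shControl cells with CI994 (1.19 ± 0.13, adjusted p = 0.000335). These 4 calls were kept in every fit that left out 1 library. Tcf7 (-0.91 ± 0.17) lost its call without shControl replicate 2 with CI994 (-0.85) or shTet2 replicate 2 with CI994 (-0.86), and Fzd6 (-0.83 ± 0.17) without shControl replicate 2 with CI994 (-0.66) or shTet2 replicate 1 with CI994 (-0.70). Rnf43 (0.82 ± 0.21) lost its call without shControl replicate 1 (0.94) or 2 (0.70) or shTet2 replicate 1 (0.60), all with CI994. Axin2, at 3 and 5 reads in shTet2 cells with CI994 against 13 and 12 reads in shControl cells with CI994, was called lower in 4 of 12 such fits. The call was lost without any one of the 8 libraries other than the untreated shControl pair and the CI994-treated shMbd3 pair. Axin2 reached 0.5 CPM only in CI994-treated shControl (0.520 and 0.604 CPM) and shMbd3 replicate 2 (0.559 CPM). It thus entered the test mainly through the group where it was high, so its call and the counts above lean towards lower in shTet2 cells.

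**Figure D4:**
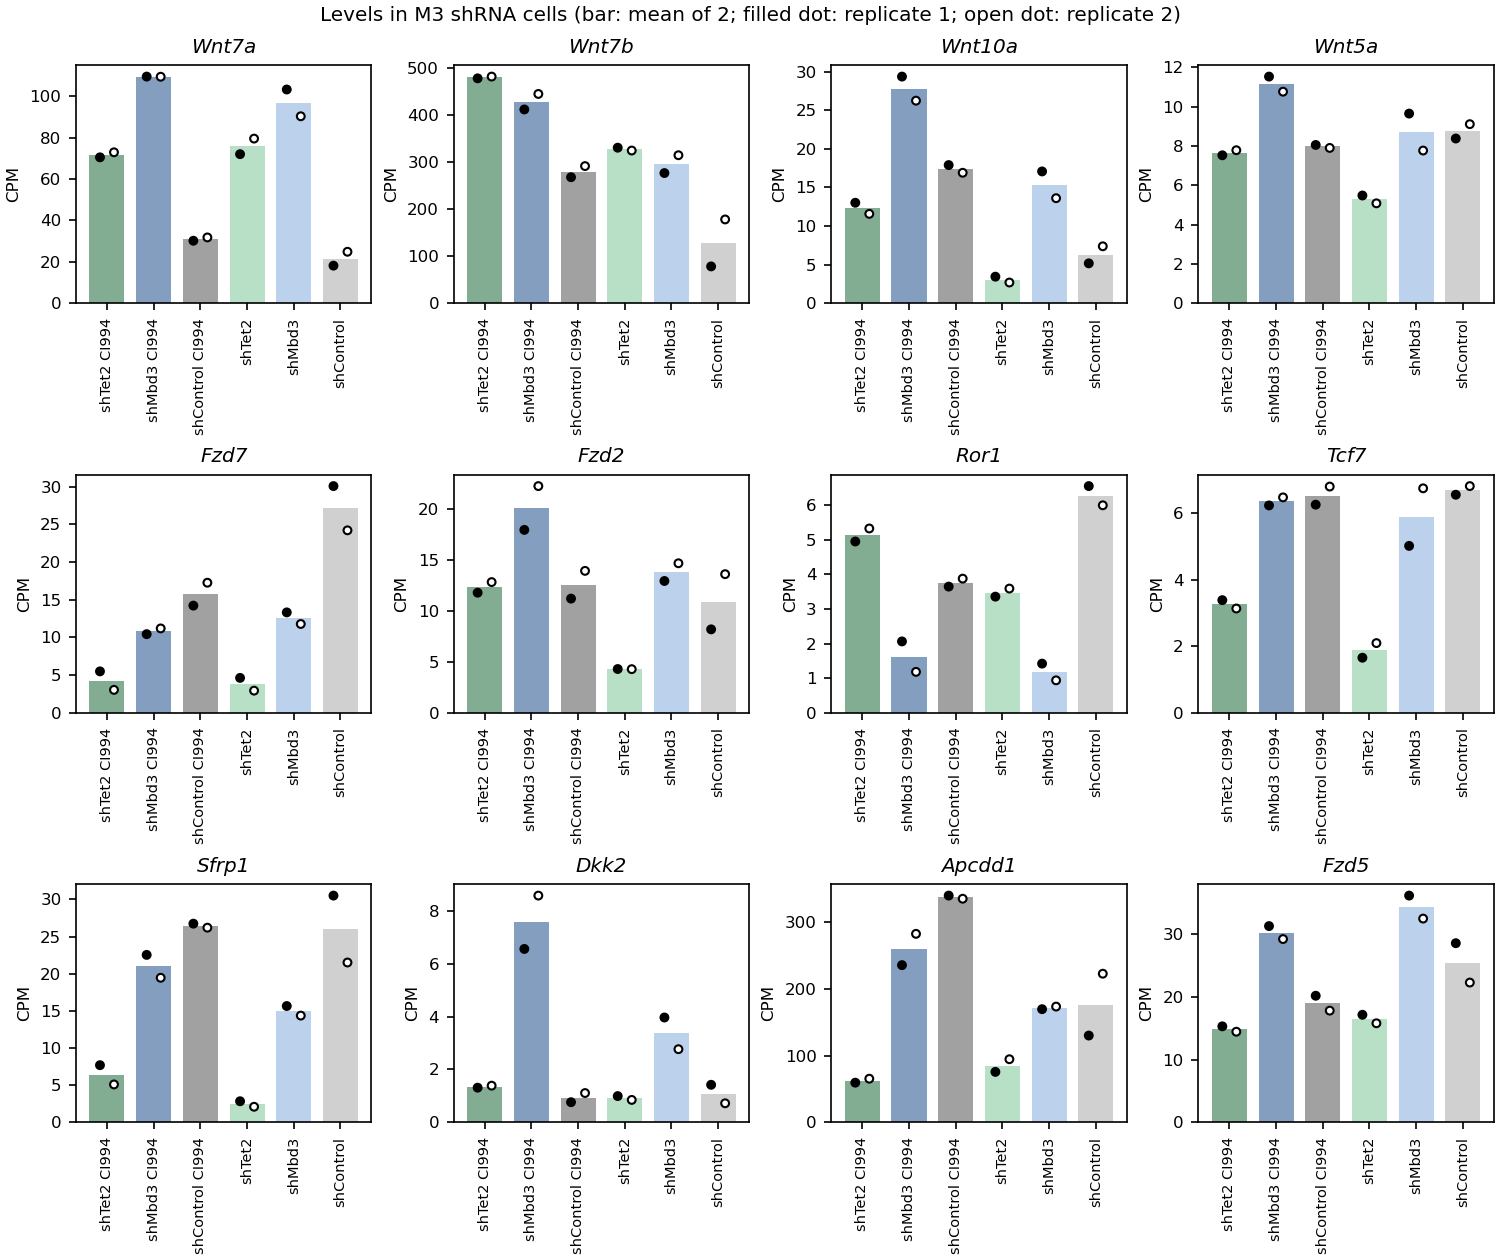
CPM on linear axes from 0 in both libraries of each of the 6 M3 groups for 12 members, with a dot for each library and a bar for the mean of 2. Sfrp1, Fzd7 and Apcdd1 are lowest in the shTet2 groups, Wnt7a is high in both knockdowns, Dkk2 in shMbd3 and Ror1 lowest there.

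The ligands Wnt7a and Wnt10a were higher and the receptor Ror1 lower in shMbd3 than in shControl cells. The Wnt10a call did not hold with the GC trend removed. Of the 25 tested, 9 passed in shMbd3 against shControl cells, 5 higher and 4 lower, against 32.2% of all genes (15.3% higher, 16.9% lower); the medians were 0.17 for the members and 0.00 for all genes. The Mbd3 level of the library labelled shControl replicate 1 bears on this comparison most, and without it 10 passed, against 34.4% of all genes tested in that fit. Wnt7a was at 103 and 90.3 CPM in shMbd3 cells, against 18.2 and 24.9 CPM in shControl cells (2.09 ± 0.13, adjusted p = 1.31e-05; 1.93 without the library labelled shControl replicate 1). Ror1 was at 1.42 and 0.937 CPM in shMbd3 cells, against 6.54 and 5.99 CPM in shControl cells (-2.08 ± 0.23, adjusted p = 0.000271; -1.96 without that library). Wnt10a was at 17.1 and 13.6 CPM in shMbd3 cells, against 5.17 and 7.38 CPM in shControl cells (1.18 ± 0.19, adjusted p = 0.00228; 0.99 without that library). The groups of these 3 genes did not overlap, and the calls were kept in every fit that left out 1 library, but Wnt10a lost its call with the GC trend removed (0.37).

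Dkk2 was at 3.97 and 2.77 CPM in shMbd3 cells, against 1.42 and 0.719 CPM in shControl cells (1.27 ± 0.27, adjusted p = 0.00877; lost without shMbd3 replicate 1, 1.03; 1.64 without the library labelled shControl replicate 1). Wnt7b was at 277 and 315 CPM in shMbd3 cells, against 78.4 and 178 CPM in shControl cells (1.25 ± 0.27, adjusted p = 0.00834), lost without shMbd3 replicate 2 (1.17) and at 0.72 without the library labelled shControl replicate 1. Axin1 was at 146 and 145 CPM in shMbd3 cells, against 61.9 and 114 CPM in shControl cells (0.72 ± 0.20, adjusted p = 0.0230). The shControl libraries differed from each other for both Wnt7b and Axin1, and the Axin1 difference was 0.35 without the library labelled shControl replicate 1; its call was lost without shMbd3 replicate 1 (0.71) or 2 (0.74). Fzd7 was at 13.3 and 11.8 CPM in shMbd3 cells, against 30.1 and 24.2 CPM in shControl cells (-1.14 ± 0.28, adjusted p = 0.0167; lost without shMbd3 replicate 1, -1.23, or 2, -1.04). Tcf7l2 (-0.60 ± 0.18) lost its call without shMbd3 replicate 1 (-0.51) or 2 (-0.69) and with the GC trend removed (-0.50). Sfrp1 (-0.81 ± 0.25) was called in 5 of 12 such fits, over a range of -1.12 to -0.51; it was lost without the library labelled shControl replicate 1 (-0.51), either shMbd3 library, or any CI994-treated shControl or shMbd3 library.

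With CI994, 6 of 25 members passed in shMbd3 against shControl cells (5 higher, 1 lower; background 19.1%, 8.11% higher and 11.0% lower). Dkk2 was at 6.56 and 8.58 CPM in shMbd3 cells with CI994, against 0.761 and 1.11 CPM in shControl cells with CI994 (2.46 ± 0.27, adjusted p = 0.000311). Wnt7a was at 109 CPM in both shMbd3 libraries with CI994, against 30.2 and 31.8 CPM in shControl cells with CI994 (1.77 ± 0.13, adjusted p = 3.49e-05). Both genes were above shControl by more than the spread within either pair, in every fit that left out 1 library. Ror1 was at 2.06 and 1.18 CPM in shMbd3 cells with CI994, against 3.64 and 3.87 CPM in shControl cells with CI994 (-1.06 ± 0.23, adjusted p = 0.0107; lost without shControl replicate 1, -1.10, or 2, -1.03, or shMbd3 replicate 2, -0.76, all with CI994). Wnt10a (0.62 ± 0.19), Fzd5 (0.62 ± 0.17) and Tcf7l1 (0.89 ± 0.26) were called in 2, 4 and 4 of the 12 fits that left out 1 library, over ranges of 0.54 to 0.71, 0.54 to 0.72 and 0.70 to 1.08, and each was lost without any one of the 4 libraries compared or of the CI994-treated shTet2 libraries. Removal of an untreated shTet2 library also ended the calls of Wnt10a and Fzd5, and removal of an untreated shMbd3 library those of Wnt10a and Tcf7l1; with the GC trend removed Wnt10a (0.31) and Tcf7l1 (0.68) were not called.

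Set against each other, the knockdowns differed in 12 of 25 members without CI994 (1 higher and 11 lower in shTet2 than in shMbd3 cells; background 19.2%, 9.55% higher and 9.60% lower) and in 12 with CI994 (1 and 11; 21.9%, 11.1% higher and 10.8% lower). With the GC trend removed the calls without CI994 were 4 higher and 12 lower, against 17.6% and 18.4% of all genes tested in that fit. The median member difference was -0.34 without and -0.49 with CI994, against -0.00 and 0.01 for all genes. Sfrp1 was at 2.83 and 2.09 CPM in shTet2 cells, against 15.7 and 14.4 CPM in shMbd3 cells (-2.32 ± 0.25, adjusted p = 0.000351; -1.64 ± 0.25 with CI994). Wnt10a was at 3.45 and 2.69 CPM in shTet2 cells, against 17.1 and 13.6 CPM in shMbd3 cells (-2.07 ± 0.19, adjusted p = 0.000177; -1.12 ± 0.19 with CI994). Ror1 was the member higher in shTet2 than in shMbd3 cells, by 1.33 ± 0.23 without and 1.46 ± 0.23 with CI994. Those calls were kept in every fit without 1 library, as were Fzd2 (-1.49 ± 0.21) and Tcf7 (-1.34 ± 0.17) without CI994 and Apcdd1 (-2.01 ± 0.20), Dkk2 (-2.09 ± 0.27) and Fzd5 (-0.97 ± 0.17) with it.

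Calls of the same comparisons that did not hold throughout were as follows. Without CI994, Fzd7 (-1.55 ± 0.28) was lost without shTet2 replicate 2 (-1.26) or shMbd3 replicate 1 (-1.45), Dkk2 (-1.36 ± 0.27) without the same libraries (-1.29 and -1.13), and Fzd5 (-0.95 ± 0.17) without shMbd3 replicate 1 (-0.86). Fzd6, which mostly acts outside the beta-catenin branch, was at 42.0 and 51.3 CPM in shTet2 cells, against 81.4 and 96.9 CPM in shMbd3 cells (-0.84 ± 0.17), a call lost without shTet2 replicate 1 (-0.70) or shMbd3 replicate 2 (-0.73). Apcdd1 was at 75.5 and 94.5 CPM in shTet2 cells, against 169 and 173 CPM in shMbd3 cells (-0.93 ± 0.20; lost without shTet2 replicate 1, -0.77, or shMbd3 replicate 1, -0.93, or 2, -0.92). Wnt5a (-0.58 ± 0.15) was lost without shTet2 replicate 1 (-0.63) or 2 (-0.53) or shMbd3 replicate 1 (-0.42), and Tcf7l1 (-0.94 ± 0.26) without any of these 4 untreated libraries or either CI994-treated shControl library, over a range of -1.19 to -0.70. With CI994, Fzd7 (-1.27 ± 0.28) was lost without shTet2 replicate 2 (-0.88) or shMbd3 replicate 1 (-1.31) or 2 (-1.22), Fzd6 (-0.87 ± 0.17) without shTet2 replicate 1 (-0.75) or shMbd3 replicate 2 (-0.75), Tcf7 (-0.84 ± 0.17) without replicate 2 of shTet2 (-0.79) or shMbd3 (-0.82), and Tcf7l1 (-1.14 ± 0.26) without shTet2 replicate 1 (-0.98) or shMbd3 replicate 2 (-0.96). Wnt7a (-0.58 ± 0.13) was lost without any of the 4 libraries compared (-0.60 to -0.55), and Wnt5a (-0.49 ± 0.15) was kept in 4 of 12 fits (-0.54 to -0.44), lost without any one of the 8 libraries other than the untreated shControl and shMbd3 pairs.

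Members called for CI994 were mostly higher with it, but that split differed once each library's trend along GC content was removed. The shares of members called, 40% in shControl, 24% in shTet2 and 12% in shMbd3 cells, were close to those of all genes. Axin2, called higher in shControl and shMbd3 cells, entered the test through CI994 libraries alone, so the counts there lean towards higher with CI994. In shControl cells 10 of 25 members passed (8 higher, 2 lower; background 33.6%, 17.9% higher and 15.7% lower), in shTet2 cells 6 (5 and 1; 24.3%, 12.6% higher and 11.7% lower) and in shMbd3 cells 3 (3 and 0; 12.7%, 7.58% higher and 5.11% lower). With the GC trend removed, 3 members were called higher and 4 lower in shControl cells, against 19.7% and 17.2% of all genes tested in that fit. In shTet2 cells 5 and 3 were called (16.9% and 15.9% of all genes), and in shMbd3 cells 4 and 0 (13.9% and 12.7%). Without the library labelled shControl replicate 1, 7 passed in shControl cells (6 higher, 1 lower), against 29.7% of all genes tested in that fit. In the fit with all libraries Wnt10a was higher with CI994 under each hairpin. It was at 17.9 and 16.9 CPM in shControl cells with CI994, against 5.17 and 7.38 CPM without (1.39 ± 0.19, adjusted p = 0.00151; 1.21 without the library labelled shControl replicate 1). In shTet2 cells it was at 13 and 11.6 CPM with CI994, against 3.45 and 2.69 CPM without (1.79 ± 0.19, adjusted p = 0.000444), and in shMbd3 cells at 29.4 and 26.2 CPM with CI994, against 17.1 and 13.6 CPM without (0.84 ± 0.19, adjusted p = 0.0218). Every CI994 library of Wnt10a lay above both untreated libraries of its hairpin. The shMbd3 call was lost without any of the 4 libraries compared (0.67 to 1.01), and with the GC trend removed the Wnt10a difference was 0.44 in shControl and 0.39 in shMbd3 cells and was not called.

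In shTet2 cells Fzd2 was at 11.8 and 12.8 CPM with CI994, against 4.30 and 4.28 CPM without (1.36 ± 0.21, adjusted p = 0.00247), in every fit that left out 1 library. The CI994 levels of Fzd2 in shTet2 cells lay between those of the untreated shControl libraries. These were 8.19 CPM in the library labelled replicate 1 and 13.6 CPM in replicate 2, so both CI994 levels were below replicate 2. Sfrp1 in shTet2 cells was at 7.69 and 5.10 CPM with CI994, against 2.83 and 2.09 CPM without (1.15 ± 0.25, adjusted p = 0.0117; lost without untreated replicate 2, 0.96, or CI994 replicate 1, 0.87). Tcf7l2 fell in shTet2 cells, at 16.9 and 20.1 CPM with CI994 against 30.2 and 36.6 CPM without (-0.90 ± 0.18, adjusted p = 0.00866; lost without untreated replicate 2, -0.77, or CI994 replicate 1, -0.78), and in shControl cells, at 19.3 and 26.4 CPM with CI994 against 33.0 and 36.3 CPM without (-0.64 ± 0.18; lost without CI994 replicate 1, -0.42, and with the GC trend removed, -0.50). Tcf7 (0.61 ± 0.17) and Rnf43 (0.68 ± 0.21) were called higher in shTet2 cells in 5 and 3 of the 12 fits that left out 1 library, over ranges of 0.48 to 0.75 and 0.46 to 0.91. The Tcf7 call was lost without any of the 4 libraries compared, CI994-treated shControl replicate 1 or either CI994-treated shMbd3 library, and the Rnf43 call was kept without the untreated shControl libraries or CI994-treated shTet2 replicate 2.

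Axin2, nearly without reads in untreated cells, had more reads with CI994. It had 13 and 12 reads in shControl cells with CI994, against 1 and 3 reads without; 7 and 9 reads in shMbd3 cells with CI994, against 0 and 0 reads without; and 3 and 5 reads in shTet2 cells with CI994, against 0 and 1 reads without. All CI994 libraries but shTet2 replicate 1 had more than the 3 reads of the floor, while no untreated library did, and Axin2 entered the test through CI994 libraries alone. It was called higher in shControl cells (lost without the library labelled shControl replicate 1 or either CI994-treated shControl library, and with the GC trend removed) and in shMbd3 cells (lost without either untreated shMbd3 library or CI994 replicate 2). Dkk2 in shMbd3 cells was at 6.56 and 8.58 CPM with CI994, against 3.97 and 2.77 CPM without (1.06 ± 0.27, adjusted p = 0.0356), a call kept in 2 of 12 fits, those without an untreated shControl library, over a range of 0.82 to 1.30.

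The other calls for CI994 in shControl cells did not hold in every fit that left out 1 library, and several shrank without the library labelled shControl replicate 1. Apcdd1 was at 339.7 and 335 CPM with CI994, against 130.0 and 223 CPM without (0.95 ± 0.20, adjusted p = 0.00956; 0.62 without the library labelled shControl replicate 1), lost without CI994 replicate 1 (0.94) or 2 (0.99). Wnt7b was at 268 and 292 CPM with CI994, against 78.4 and 178 CPM without (1.21 ± 0.27; 0.67 without the library labelled shControl replicate 1), lost without CI994 replicate 1 (1.26) or 2 (1.17). Wnt7a was at 30.2 and 31.8 CPM with CI994, against 18.2 and 24.9 CPM without (0.50 ± 0.13), lost without CI994 replicate 1 (0.53) or 2 (0.49) and at 0.01 with the GC trend removed. The difference of Lrp5 (1.48 ± 0.45) came to 0.55 without the library labelled shControl replicate 1, where Lrp5 was at 20.1 CPM against 80.5 CPM in replicate 2, and it was called in 2 of 12 fits, those without one of the untreated shControl libraries. Rnf43 (0.61 ± 0.21), Ror1 (-0.70 ± 0.23) and Znrf3 (0.30 ± 0.10) were called in 3, 3 and 2 of 12, over ranges of 0.49 to 0.73, -0.81 to -0.58 and 0.26 to 0.35. Removing either CI994-treated shControl library or any untreated shTet2 or shMbd3 library ended each call, as did the library labelled shControl replicate 1 for Rnf43 and Ror1, CI994-treated shTet2 libraries for Ror1 and Znrf3, CI994-treated shMbd3 libraries for Rnf43 and Znrf3, and removal of the GC trend for all of them.

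Markers of other cell types moved with CI994. The summed CPM of 4 mammary basal markers, with CI994 nearly all of it Krt14, was 26.1 to 32.6 in shControl cells with CI994, against 3.25 to 5.85 without; 53.1 to 71.8 in shTet2 cells with CI994, against 4.86 to 5.73 without; and 78.2 to 108 in shMbd3 cells with CI994, against 17.5 to 23.3 without. That of 5 haematopoietic markers, led by Cd74 and Lyz2, was 3.52 to 4.52 in shControl cells with CI994, against 0.335 to 0.549 without; 3.0 to 6.0 in shTet2 cells with CI994, against 0.199 to 0.520 without; and 18.8 to 21.5 in shMbd3 cells with CI994, against 0.710 to 1.29 without. Acta2, another basal marker, was lower, at 0.200 and 0 CPM in shControl cells with CI994, against 2.01 and 1.73 CPM without, and at 0 in shMbd3 cells with CI994, against 0.417 and 0.446 CPM without. Trp63, the basal transcription factor, was at most 0.604 CPM in any library. Krt5, a defining basal keratin, was at most 0.0996 CPM and Ptprc, the defining leukocyte gene, at most 0.378 CPM in any library. Their part in the CI994 results was not tested.

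**Figure D5:**
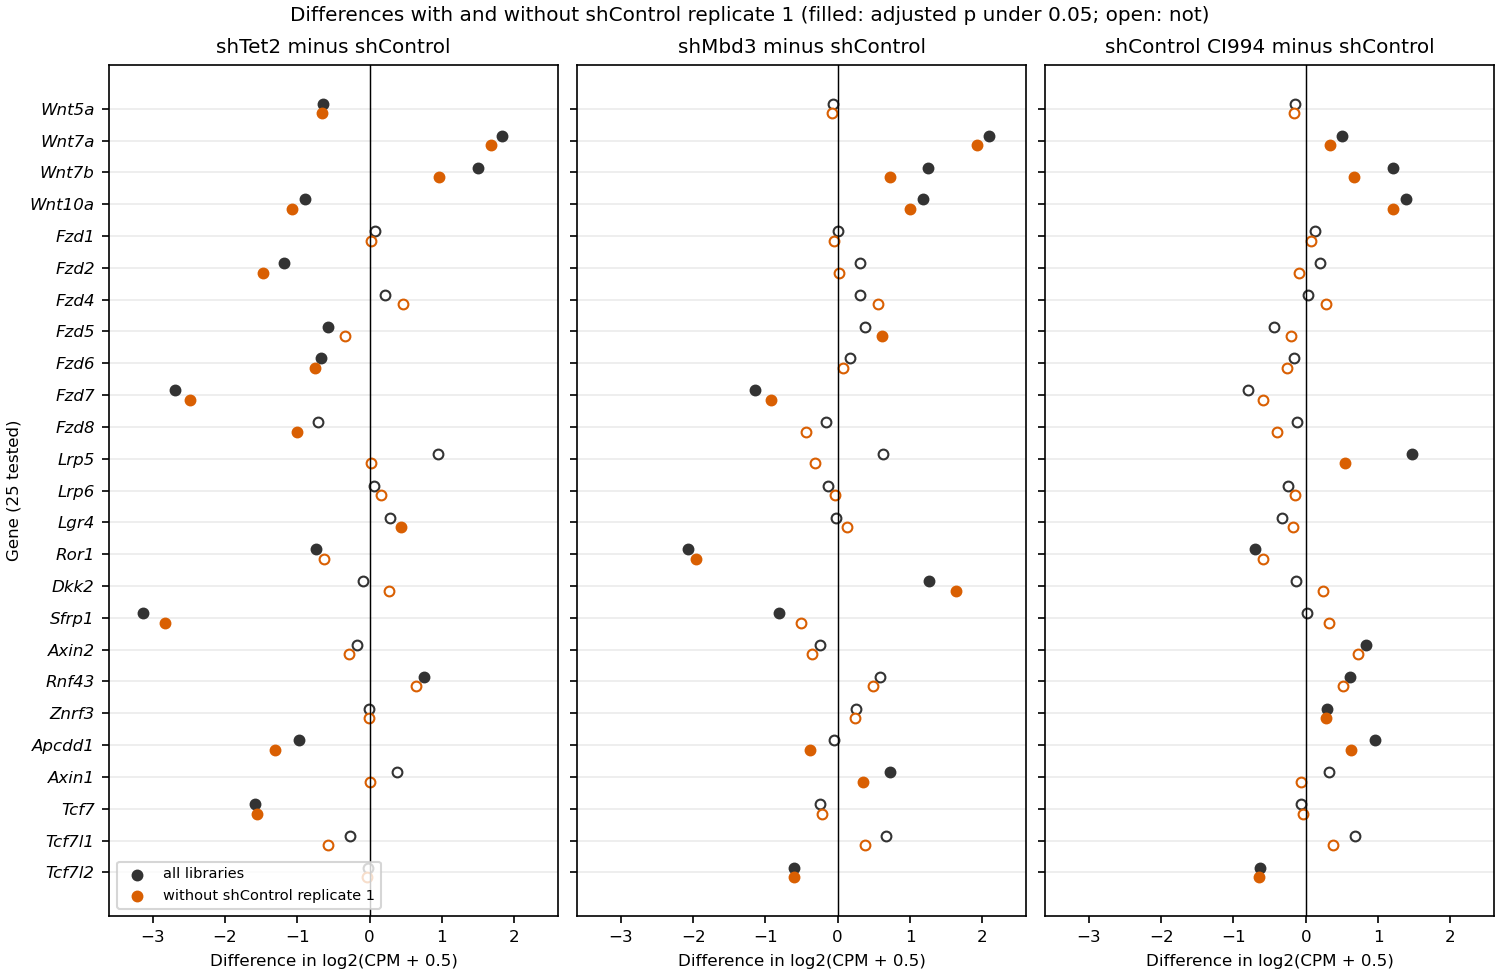
Log2 difference of CPM + 0.5 for the 25 members tested against untreated shControl cells, with all 12 libraries (black) and without the library labelled shControl replicate 1 (orange), in 1 panel per comparison; filled points passed at adjusted p under 0.05 and open ones did not. Without that library Sfrp1, Fzd7 and Wnt7a keep most of their shTet2 difference, and Wnt7a and Ror1 most of their shMbd3 difference. Wnt7b and Lrp5 move towards 0. Sfrp1 in the shMbd3 panel and Ror1 in the shTet2 and CI994 panels also shrink and turn open.

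Whether CI994 altered the knockdown effects was tested as an interaction, the knockdown difference with CI994 minus that without it. By limma 0 of 25 members passed for Tet2 (background 0.687% of all genes, 0.414% higher and 0.273% lower) and 0 for Mbd3 (0.0781%, 0.0390% in each direction); 7 and 3 members had an unadjusted p under 0.05, and edgeR on the recovered reads called 0 in each. Apcdd1 had the smallest p in the Tet2 interaction (-1.46, adjusted p = 0.0599): its knockdown difference was -2.44 with CI994 and -0.98 without. Without the library labelled shControl replicate 1, 2 members passed, Apcdd1 (-1.13) and Fzd2 (1.45), against 6.36% of all genes tested in that fit. With the GC trend removed, 3 members passed, Apcdd1 (-1.45), Fzd2 (1.37) and Wnt7b (-0.48), against 4.39% of all genes tested. In the Mbd3 interaction Ror1 was at 1.01 (adjusted p = 0.274) and Dkk2 at 1.19 (adjusted p = 0.278).

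Among the 53 tested genes of the list of other pathway genes, Prickle2 and Vangl2, proteins of planar cell polarity, the Wnt branch that orients cells, carried the largest falls in both knockdowns. Prickle2 was at 0.376 and 0.535 CPM in shMbd3 cells, against 31.2 and 35.3 CPM in shControl cells (-5.19 ± 0.20), and at 7.70 and 9.61 CPM in shTet2 cells (-1.86 ± 0.20). Vangl2 was at 0.0417 and 0.0446 CPM in shMbd3 cells and 0.236 and 0.199 CPM in shTet2 cells, against 4.30 and 5.85 CPM in shControl cells, and was called lower in both. Prickle1 moved the other way, higher by 1.93 ± 0.18 in shMbd3 and 1.18 ± 0.18 in shTet2 cells. Tle4, a corepressor that binds Tcf proteins, was at 17.9 and 21.2 CPM in shTet2 cells, against 3.62 and 4.70 CPM in shControl cells (2.14 ± 0.19). These 5 differences with values were kept in every fit that left out 1 library. In all, 8 of the list were higher (15.1%) and 9 lower (17.0%) in shTet2 cells, against 10.5% and 12.9% of all genes, and 9 (17.0%) and 7 (13.2%) in shMbd3 cells, against 15.3% and 16.9%. With CI994 in both arms the counts were 4 (7.55%) and 7 (13.2%) in shTet2 cells, against 6.69% and 9.28% of all genes, and 6 (11.3%) and 7 (13.2%) in shMbd3 cells, against 8.11% and 11.0%. For CI994 itself 9 (17.0%) were higher and 9 (17.0%) lower with shControl, against 17.9% and 15.7% of all genes, 9 (17.0%) and 6 (11.3%) with shTet2, against 12.6% and 11.7%, and 7 (13.2%) and 2 (3.77%) with shMbd3, against 7.58% and 5.11%. Rspo3, an R-spondin, was higher under each hairpin (by 1.34 ± 0.19 with shControl, 1.64 ± 0.19 with shTet2 and 2.07 ± 0.19 with shMbd3). With CI994, Apc was called lower in shControl (-0.76 ± 0.14) and shTet2 cells (-0.47 ± 0.14) and not called in shMbd3 cells (-0.24). Its shControl call was lost without CI994-treated shControl replicate 1 (-0.72).

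Members outside the tests were low. Of the 39, 11 were tested in neither set. In the CPM libraries Fzd3, Ror2, Dkk1 and Sp5 had 0 reads in all 12. Lef1 had 2 reads over the 12 libraries, Lgr5 6, Wnt11 12 and Wnt5b 45. Wnt4, Wnt6, Nkd1 and Sfrp2 had 1 read each over the 12 libraries. Wnt5b was the most abundant untested ligand in the RPKM libraries, at 0.203 to 0.867 RPKM in the clones, against 0.438 and 0.442 RPKM in Py2T LT cells. Dkk3 and Wif1 were at most 0.0553 and 0.147 RPKM.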

How the data were processed

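RNA was measured in 20 libraries from a stranded total RNA kit, per the labels' protocols, and the submitters' processing notes name STAR and mm10; how reads were counted is not given in the sources used here, so reads of overlapping or antisense genes cannot be told apart. The authors deposited RPKM values for 8 libraries (Py2T LT, M1, M2 and M3), read off from the values, where RPKM and FPKM cannot be distinguished. The authors deposited CPM values for the 12 M3 shRNA libraries, and 100% of these were whole multiples of 1 read within 0.01 reads. Gene numbers were given mouse symbols from an NCBI table (99.7% matched in each set).

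Values were divided by TMM factors, transformed as log2(value + 0.5) and fitted with limma 3.58.1 in R 4.3.3 (empirical Bayes, mean trend, robust), 1 fit for each set on group alone; the Benjamini-Hochberg adjustment ran over all tested genes, with a threshold of 0.05. Genes had to reach 1 RPKM or 0.5 CPM in 2 libraries, and the limma step was tested on simulated data. The added 0.5 compresses differences of low genes. The p-values measure the spread between 2 experiments a group. Alternatives were RLE size factors, no filter, pseudocounts of 0.1 and 1, the replicate number as a block and leaving out each library in turn, which leaves a lone library assumed to vary like those of other groups; for CPM also edgeR 4.0.16 (quasi-likelihood, recovered reads) and a fit after removing, library by library, the trend with GC content, known for 95.6% of tested genes.

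The members, the lists and the rule for named genes were chosen with earlier results of these data known. Any member could be named, and from the list of other pathway genes up to 3 rises and 3 falls per comparison, the largest that passed with groups that did not overlap and a mean of at least 1 in the higher group, besides Ctnnb1, Apc, Ccnd1, Myc, Porcn and Wls. Promoter windows and coordinates are RefSeq's for GRCm38.p6, the build mm10 names. Epithelial, mesenchymal, mammary luminal, mammary basal, haematopoietic and endothelial marker lists were used as checks; endothelial markers summed to at most 1.12 CPM, and Pgr, a luminal marker, had no reads in the CPM libraries.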

Additional observations from a re-analysis of the deposited data

Results flagged for a closer look

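The clones differed from each other in how far some members stood from Py2T LT cells, by a limma test of the clones directly against each other; values are differences of log2(RPKM + 0.5). In M2 against M1, Sfrp1 (-2.68), Wnt10a (-2.16), Fzd2 (-0.95) and Wnt5a (2.13) passed in every fit that left out 1 library. Tcf7l1 (-0.75) passed there too but was lost without M1 replicate 1 (-0.70) or M2 replicate 1 (-0.73) or 2 (-0.77), and Fzd7 (-0.64) without M2 replicate 1 (-0.56) or 2 (-0.71). Ror1 (0.78) was lost without M1 replicate 1 (0.62) or M2 replicate 1 or 2 (both 0.78), and Dkk2 (0.84) without the same libraries (0.70, 0.84 and 0.85). Both genes were under 1 RPKM in every M1 and M2 library, and without either Py2T LT library they were not tested. Apcdd1 (-0.42) passed in 3 of 8 such fits, lost without either Py2T LT or M2 library or M3 replicate 2 (-0.51 to -0.32), and Lrp6 (0.75) in 1 of 8, that without M1 replicate 2; neither passed with no filter on low levels.

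In M3 against M1, Sfrp1 (1.12) passed throughout and Apcdd1 (0.63) did not without either M3 library (0.61 and 0.65). In M3 against M2, Sfrp1 (3.80), Wnt10a (1.87), Fzd7 (1.06), Apcdd1 (1.05) and Wnt5a (-1.78) passed in every fit that left out 1 library, and Fzd2 (0.77) did except without M2 replicate 2 (0.63) or M3 replicate 2 (0.67). Fzd5 (0.72), Fzd1 (-0.40) and Tcf7 (-0.39) each passed in 2 of 8 such fits, lost without any Py2T LT, M2 or M3 library (0.59 to 0.84, -0.45 to -0.37 and -0.46 to -0.32). Tcf7l1 (0.64) and Wnt7b (0.51) each passed in 3 of 8, lost when a Py2T LT library, an M2 library or M3 replicate 2 was left out (0.40 to 0.66 and 0.30 to 0.54).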

How the results depend on the processing

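With 2 libraries a group, leaving out 1 library moved the count of members called from 21 to between 11 and 22 in M1 against Py2T LT, from 22 to 13 to 23 in M2 and 13 to 22 in M3, 4 to 13 in M2 against M1, 1 to 8 in M3 against M1, 5 to 14 in M3 against M2, 8 to 15 in shTet2 and 4 to 15 in shMbd3 against shControl, 1 to 17, 2 to 14 and 0 to 10 for CI994 in shControl, shTet2 and shMbd3, 4 to 14 and 2 to 12 in shTet2 and shMbd3 against shControl with CI994, 6 to 21 without and 6 to 18 with CI994 in shTet2 against shMbd3, and 0 to 10 in each interaction. Of the called members, 14, 17 and 18 in M1, M2 and M3 were kept under every alternative run that still tested the gene. Among them, Lef1, Fzd3, Wnt11, Ror1 and Dkk2 were not tested when either Py2T LT library was left out. Under every alternative, 6 were kept in shTet2 against shControl, 2 in shMbd3 against shControl and 0 for CI994 in shControl. With no filter CI994 in shControl called 6 members, not 10. Same-numbered libraries deviated together with r from -0.122 to 0.128 over 6 pairs of RPKM groups (1 over 0.1) and 0.0958 to 0.524 over 15 pairs of CPM groups (14 over 0.1), a hint from the data and not the design, so the numbers were not used as pairs. The replicate block changed the members called for CI994 in shTet2 from 6 to 10, in shMbd3 from 3 to 7 and in the Tet2 interaction from 0 to 1 (Apcdd1). With the GC trend removed the Tet2 interaction called 3 members, against 4.39% of all genes tested. In that fit CI994 in shControl called 3 higher and 4 lower, not 8 and 2, against 19.7% and 17.2% of all genes. The block with the GC trend removed called 10 and 9 for CI994 in shTet2 and shMbd3, 13 and 10 in shTet2 and shMbd3 against shControl with CI994, and 5 in the Tet2 interaction. In shMbd3 against shControl Apcdd1, at -0.05 and not called, was called at -0.38 without the library labelled shControl replicate 1 and turned to 0.28 without replicate 2. Over all genes, removal of the GC trend, alone or with the block, moved the calls from 2996 to at most 5745 in shTet2 and from 2045 to at most 4626 with CI994, from 2451 to at most 5330 in shMbd3 with CI994, from 3111 to at most 5108 and 1626 to at most 4400 for CI994 in shTet2 and shMbd3, and from 2453 to at most 5425 and from 2800 to at most 5795 between the knockdowns without and with CI994. The Tet2 interaction, with 88 calls over all genes, had 537 with the GC trend removed and 1166 with the block as well, 174 with the block alone, 132 with no filter, 56 with a pseudocount of 0.1 and 38 by edgeR; the Mbd3 interaction, with 10, had 125, 572, 31, 36, 0 and 0 under the same alternatives and 41 with a pseudocount of 1. Leaving out 1 library moved these counts and those between clones by over 1.5 times as well. The cause of these shifts was not tested.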

Other observations

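Lef1 and Dkk2, both low in the clones, lie on the same chromosome, Lef1 at chr3:131110297-131224357 and Dkk2 at chr3:132085266-132180304, 860909 bases apart in GRCm38. The 4 genes tested between them, chosen after their values were seen, did not share the fall: Hadh was at 47.7 to 63.7 RPKM in the clones, against 36.9 and 37.0 RPKM in Py2T LT cells, and Sgms2 at 24.2 to 33.0 RPKM, against 12.6 and 12.8 RPKM. Papss1, at 45.5 to 53.0 RPKM in the clones against 49.1 and 48.1 RPKM in Py2T LT cells, and Cyp2u1, at 2.12 to 3.04 RPKM against 2.55 and 2.32 RPKM, overlapped between the groups. On the other side of Lef1, Ostc was at 58.9 to 81.5 RPKM in the clones, against 106 and 108 RPKM in Py2T LT cells. Rpl34, there too, was at 1.69 to 2.79 RPKM, against 4.22 and 3.24 RPKM. Beyond Dkk2, Tbck was at 3.03 to 3.71 RPKM in the clones, against 4.09 and 4.59 RPKM, and Aimp1 overlapped between the groups. Fzd3, at chr14:65192441-65262463, lies between Extl3, at 10.3 to 13.3 RPKM in the clones against 23.7 and 21.0 RPKM in Py2T LT cells, and Zfp395, at 7.91 to 10.4 RPKM against 5.05 and 4.43 RPKM. Further out, Elp3 was at 15.6 to 19.9 RPKM in the clones, against 31.2 and 28.8 RPKM, and Ints9 overlapped. Near Wnt11, Thap12 was at 47.3 to 74.5 RPKM in the clones, against 149 and 146 RPKM in Py2T LT cells. Emsy (9.19 to 13.3 against 20.4 and 22.3 RPKM) and Dgat2 (0.562 to 0.942 against 2.89 and 1.89 RPKM) were also lower there, and Uvrag overlapped. Why some neighbours were lower was not tested.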
